A study of Rattus norvegicus with 17 samples.

Results

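The genes described here are 8 markers of the granule cells of the dentate gyrus, namely Prox1, C1ql2, C1ql3, Dsp, Trpc6, Calb1, Tdo2 and Pdzd2. They were picked by name as known granule cell markers and make up 8 of the 34322 genes counted in hippocampal RNA from 17 Long-Evans rats. All 17 were offspring of dams assigned to 1 of 3 diets from gestational day 0 to 20. The 5 ET rats came from a dam given a liquid diet with 6.7% ethanol, which supplied 36% of its calories. The 6 PF rats came from a pair-fed dam that received control liquid diet without ethanol in an amount yoked to an ET dam, and the 6 AD rats from a dam with free access to chow. All tissue was taken at 36 to 38 days of age, long after the ethanol diet had ended. There were 3 males and 2 females in ET and 3 of each sex in PF and AD, and the right hippocampus was used for 1 ET, 2 PF and 1 AD rat and the left for the others. Each diet group was 1 litter, so diet and litter cannot be told apart, and the p-values measure only the spread between littermates.

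The dentate gyrus is the entry station of the hippocampal circuit. Its granule cells receive input from the entorhinal cortex and send mossy fibre axons to the pyramidal neurons of CA3, which in turn project to CA1. The dentate gyrus also keeps making new granule cells after birth, and these pass through an immature stage before they acquire the mature markers. Because the gyrus is only one portion of the hippocampus, the level of its marker genes in whole-tissue RNA depends on how much of that portion a sample holds as well as on expression per cell. In such bulk samples, fewer cells of a type and less RNA per cell cannot be told apart.

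The 8 genes have different roles. Prox1 is the homeobox transcription factor that specifies and maintains granule cell identity. C1ql2 and C1ql3 are secreted proteins of the C1q family that act at synapses, C1ql2 being known from mossy fibre terminals. Dsp encodes desmoplakin, which anchors intermediate filaments at desmosomes. Trpc6 is a cation channel activated by diacylglycerol. Calb1 is the calcium buffer calbindin, which is also made by CA1 pyramidal cells and by some interneurons. Tdo2 is a tryptophan-degrading enzyme, and Pdzd2 is a large protein with PDZ domains.

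Promoter sequences are shown for C1ql2, C1ql3 and Dsp, since these genes varied together between libraries, as described further on. The RefSeq promoter windows of the assembly GRCr8, which run from 250 bases before to 50 bases after the 1 start listed for each gene, held 6 of the 8 genes and not Prox1 and Calb1. Capitals mark the E-boxes CAGCTG and CAGATG, the TATA motif TATAAA and the GC box GGGCGG, each searched on both strands. No motif overlapped another in these windows.
C1ql2 (chr13:34023652-34023951, plus strand): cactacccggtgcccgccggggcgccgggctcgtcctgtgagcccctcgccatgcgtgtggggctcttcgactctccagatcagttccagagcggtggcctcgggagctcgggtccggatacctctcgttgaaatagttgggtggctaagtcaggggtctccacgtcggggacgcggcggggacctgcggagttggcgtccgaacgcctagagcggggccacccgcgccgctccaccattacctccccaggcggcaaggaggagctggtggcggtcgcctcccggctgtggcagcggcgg
C1ql3 (chr17:81038195-81038494, minus strand): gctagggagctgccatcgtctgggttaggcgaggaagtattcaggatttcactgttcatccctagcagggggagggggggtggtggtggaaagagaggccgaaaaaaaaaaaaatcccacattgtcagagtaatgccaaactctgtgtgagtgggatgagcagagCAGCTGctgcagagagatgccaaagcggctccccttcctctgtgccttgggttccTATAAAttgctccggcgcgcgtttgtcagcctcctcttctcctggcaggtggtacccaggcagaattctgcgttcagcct
Dsp (chr17:26877072-26877371, minus strand): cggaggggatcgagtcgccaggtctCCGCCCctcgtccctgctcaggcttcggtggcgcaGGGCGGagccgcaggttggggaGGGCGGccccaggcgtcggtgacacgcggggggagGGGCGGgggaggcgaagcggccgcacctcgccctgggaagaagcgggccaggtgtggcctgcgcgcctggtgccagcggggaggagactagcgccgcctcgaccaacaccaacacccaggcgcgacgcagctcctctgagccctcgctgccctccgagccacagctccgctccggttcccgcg
C1ql2 and C1ql3, although paralogs, differed in these windows, with a GC content of 70.3% for C1ql2 and 54.7% for C1ql3. The C1ql3 window held 1 CAGCTG and 1 TATAAA, whereas the C1ql2 window held none of the motifs searched. The Dsp window, with a GC content of 75.0%, held 4 GC boxes, and it lies within the annotated gene, downstream of the outermost start. Among 33469 promoter windows of 300 bases, 15.1% held CAGCTG, 16.6% CAGATG, 14.2% TATAAA and 33.1% GGGCGG. Of the 6 granule cell genes with a window, 1 held CAGCTG, 0 held CAGATG, 2 held TATAAA (C1ql3 and Tdo2) and 2 held GGGCGG (Dsp and Pdzd2). A match of this kind describes the letters only.

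A library held 10853947 to 17498392 counted fragments. The study left 3 libraries out of its final analysis, ET replicate 2, PF animal 11f6 and AD replicate 4, and these held at least 87541.9 normalized counts of the choroid plexus gene Ttr against at most 14602.7 in the other 14. Tests below used those 14 libraries (4 ET, 5 PF and 5 AD), and values of all 17 are given beside them. In 2 libraries, AD replicate 1 and AD replicate 2, Y-linked counts went against the sex label, while 15 matched. Both are labelled AD, and comparisons with AD are therefore also given without them. Normalized counts are averaged counts scaled to the mean effective library size.

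Of the 8 genes, 7 were detected in every library and passed the filter on low counts. Tdo2 did not. Its averaged count was below 1 in each of the 17 libraries and 0 in 5 of them, under the floor of 3 counts, which is 1.71e-05% to 2.76e-05% of a library. As a marker, Tdo2 therefore carried no measurement here, and no fold change is given for it.

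Prox1 was the most variable of the granule cell genes. Its normalized counts in the ET libraries were 110.0, 473.8, 682.5, 512.6 and 419.4 in replicates 1 to 5. In PF they were 304.3, 338.3 and 648.9 in replicates 1 to 3, 314.7 in animal 11f5, 459.1 in animal 11f6 and 444.0 in replicate 6. In AD they were 381.4, 392.7, 410.4, 443.1, 497.7 and 244.2 in replicates 1 to 6. ET thus held both the lowest and the highest library, and its range covered all PF and AD libraries. ET replicate 1 lay far under every other library, 2.22-fold under the next lowest of the 17, AD replicate 6. Mean Prox1 was 431 ± 240.2 normalized counts in ET (SD, n = 4), 410 ± 145 in PF (SD, n = 5) and 385 ± 91.2 in AD (SD, n = 5). Against PF, ET differed by a log2 fold change of 0.07 with an SE of 0.41 (edgeR quasi-likelihood test, adjusted p = 0.99). Without ET replicate 1 that log2 fold change was 0.39 with an SE of 0.26 (adjusted p = 0.70).

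C1ql2 and C1ql3 were also low in ET replicate 1. C1ql2 normalized counts were 259.8, 373.0, 455.7, 522.3 and 394.9 in ET replicates 1 to 5. The PF libraries held 393.0, 260.4, 481.4 and 460.6 in replicates 1, 2, 3 and 6, 246.8 in animal 11f5 and 451.3 in animal 11f6. The AD libraries held 433.5, 482.7, 449.9, 584.9, 586.1 and 332.0 in replicates 1 to 6. ET replicate 1, PF replicate 2 and PF animal 11f5 were low, and the 3 diets overlapped. The means were 408 ± 112 in ET (SD, n = 4), 368 ± 109.9 in PF (SD, n = 5) and 457 ± 91.6 in AD (SD, n = 5). The largest fitted difference was between PF and AD, a log2 fold change of -0.31 with an SE of 0.20 (adjusted p = 0.50).

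C1ql3 normalized counts were 447.6, 699.7, 768.9, 806.7 and 669.2 in ET replicates 1 to 5. PF gave 544.0, 573.8, 832.0 and 653.7 in replicates 1, 2, 3 and 6, 531.1 in animal 11f5 and 609.0 in animal 11f6. AD gave 664.3, 622.3, 653.3, 654.6, 695.4 and 474.9 in replicates 1 to 6. ET replicate 1 and AD replicate 6 were again the lowest and PF replicate 3 the highest, with full overlap of the diets. C1ql3 differed between ET and PF by a log2 fold change of 0.10 with an SE of 0.18 (adjusted p = 0.94), and between PF and AD by 0.01 with an SE of 0.13. In GRCr8, C1ql3 overlaps Pter and Rsu1, and the counting allowed reads to count for several features, so its counts are less certain. Pter averaged 874, 851 and 728 normalized counts and Rsu1 450.3, 417 and 454 in ET, PF and AD, and neither was called in any diet comparison. Trpc6 and Pdzd2 each overlap an annotated pseudogene in GRCr8, LOC120094508 and Ftl1-ps14, so the same holds for their counts.

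Dsp had the fewest fragments of the 7 detected genes, so its relative counting error is the largest of the 7. Its normalized counts were 46.9, 112.5, 132.5, 119.4 and 57.1 in ET replicates 1 to 5. Values in PF were 62.4, 54.9, 93.2 and 72.7 in replicates 1, 2, 3 and 6, 60.4 in animal 11f5 and 136.5 in animal 11f6. Values in AD were 63.0, 63.7, 83.4, 146.3, 91.3 and 72.0 in replicates 1 to 6. Of the 3 choroid plexus-rich libraries, PF animal 11f6 and AD replicate 4 were the highest for Dsp in their groups. Desmoplakin is also made by epithelia, and whether choroid plexus contributed to these Dsp counts was not tested. ET against PF gave a log2 fold change of 0.38 with an SE of 0.30 (adjusted p = 0.78), which was 0.117 without ET replicate 3 and 0.583 without ET replicate 1.

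Trpc6 was steadier. Its normalized counts were 309.4, 334.3, 415.1, 421.0 and 312.0 in ET replicates 1 to 5. For PF they were 265.3, 285.0, 363.3 and 306.6 in replicates 1, 2, 3 and 6, 282.4 in animal 11f5 and 292.8 in animal 11f6. For AD they were 304.6, 318.6, 373.5, 304.6, 375.4 and 291.9 in replicates 1 to 6. Each ET library lay above 5 of the 6 PF libraries, and PF replicate 3 fell among the ET values. Trpc6 in ET against PF had a log2 fold change of 0.28 with an SE of 0.13 and an unadjusted p of 0.052 (edgeR, adjusted p = 0.43).

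Calb1 showed the clearest separation of diets among the 7 detected genes, between PF and AD. Its normalized counts were 932.7, 1175, 1284, 1481 and 1021 in ET replicates 1 to 5. The PF values were 1655, 1410, 1502 and 1179 in replicates 1, 2, 3 and 6, 1343 in animal 11f5 and 1417 in animal 11f6. The AD values were 1053, 866, 1107, 1508, 1320 and 863 in replicates 1 to 6. PF was mostly high and AD mostly low. Among the 14 libraries the groups overlapped through PF replicate 6 and AD replicate 5, and AD replicate 4, one of the choroid plexus-rich libraries, lay among the PF values. The means were 1180 ± 250.4 in ET (SD, n = 4), 1418 ± 178 in PF (SD, n = 5) and 1042 ± 190.0 in AD (SD, n = 5). Calb1 in PF against AD had a log2 fold change of 0.45 with an SE of 0.12, a 1.36-fold difference, and an unadjusted p of 0.0034 (edgeR, adjusted p = 0.060). DESeq2 gave the same log2 fold change with an adjusted p of 0.013, while all 17 libraries gave 0.34 (adjusted p = 0.19) and the 2 AD libraries with mismatched sex left out gave 0.37 (adjusted p = 0.30). Leaving out PF replicate 6 or AD replicate 5 brought the edgeR adjusted p to 0.028 and 0.011. The replicate block, in which numbers shared by different animals served as pairs, gave 0.565 (adjusted p = 0.0026), and the pyramidal mean as a covariate 0.50 (adjusted p = 0.020). Whether Calb1 passed an adjusted p of 0.05 therefore depended on the tool, the model and single libraries, and its log2 fold change was under 1.5 in each of these fits.

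Pdzd2 had the narrowest spread. Its normalized counts were 779.5, 804.5, 909, 772.2 and 791.8 in ET replicates 1 to 5. PF counts were 933.5, 830.3, 1124 and 1083 in replicates 1, 2, 3 and 6, 896 in animal 11f5 and 1093 in animal 11f6. AD counts were 1019, 895, 859, 1223, 809 and 993 in replicates 1 to 6. ET was low as a group, with replicate 3 reaching into the PF and AD ranges. Pdzd2 in ET against PF had a log2 fold change of -0.26 with an SE of 0.10 and an unadjusted p of 0.025 (edgeR, adjusted p = 0.29), and in ET against AD of -0.17 with an SE of 0.08 (adjusted p = 1.0).

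**Figure D1:**
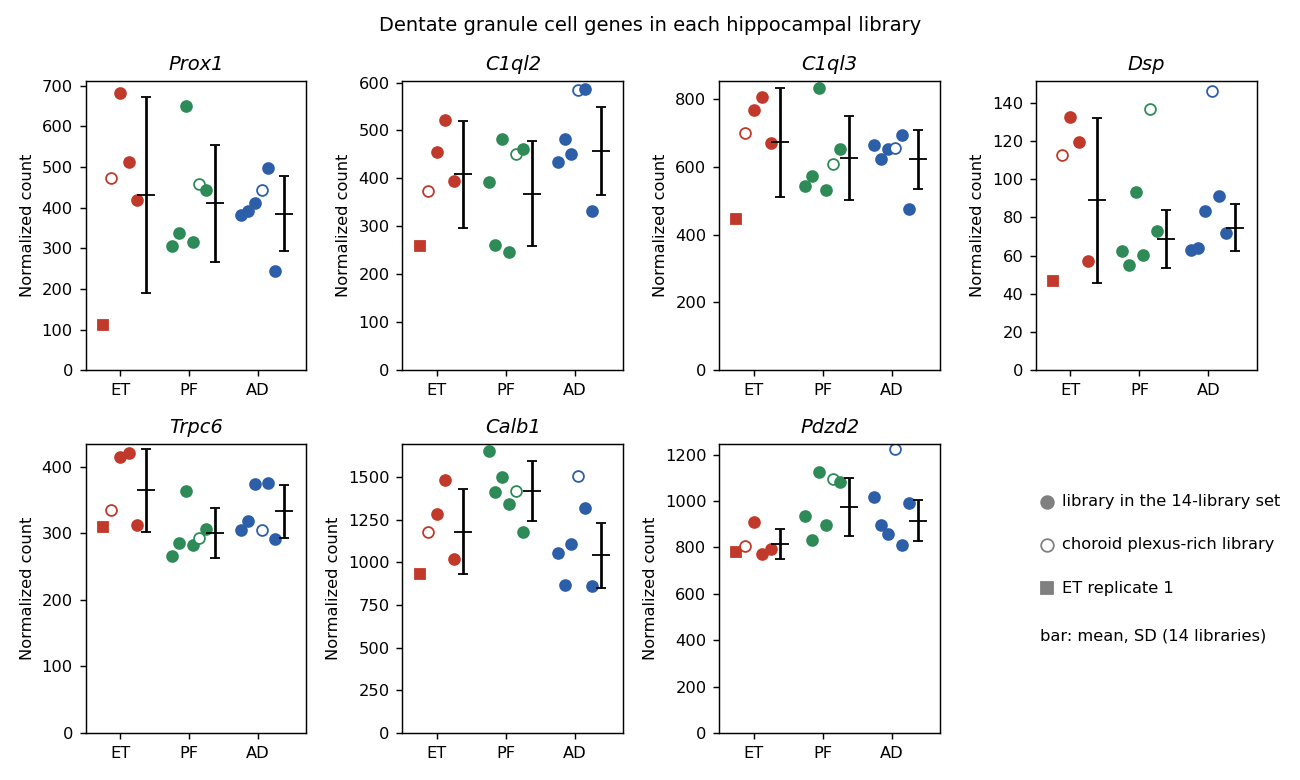
Normalized counts of the 7 detected dentate granule cell genes in each library (vertical axes, linear and starting at 0) by diet (horizontal axes), with squares for ET replicate 1, open circles for the 3 choroid plexus-rich libraries and bars for the mean and SD of the 14-library set. The diets overlap in every panel, and ET replicate 1 is the lowest library for Prox1, C1ql3 and Dsp.

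The first question of the design was whether prenatal ethanol changed expression relative to the pair-fed control. None of the 7 detected granule cell genes was called in ET against PF at an adjusted p under 0.01 with an absolute log2 fold change above 1.5, where 2.17% of 16068 genes were called. At an adjusted p under 0.05 alone, 0 of 7 passed, against 4.13% of all genes tested. At an unadjusted p under 0.05, 0 were higher and 1 lower (Pdzd2), against 4.72% higher and 7.21% lower among all genes. DESeq2 also called 0 of 7. The ET and PF libraries overlapped for all 7 genes, where 1.87% of all genes lay higher in ET without overlap and 4.89% lower. The median log2 fold change of the 7 genes was 0.10, with 5 above and 2 below 0, beside a median of 0.01 over all genes tested.

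The second comparison set ET against AD. None of the 7 genes was called, where 0.0127% of 15749 genes were called by either rule, and 0 had an unadjusted p under 0.05 (1.59% higher and 1.15% lower among all genes). DESeq2 called 0 as well, and all 7 overlapped between the groups (0.762% of all genes lay higher and 0.451% lower without overlap). The log2 fold changes ran from -0.17 for C1ql2 and Pdzd2 to 0.26 for Dsp. The third comparison, PF against AD, asks what the liquid diet and pair-feeding did without ethanol. It called 2.05% of 15960 genes and again none of the 7, nor any at an adjusted p under 0.05, where 5.17% of all genes passed, and DESeq2 called 0 at the first rule. At an unadjusted p under 0.05, 1 of the 7 was higher (Calb1) and 0 lower, against 9.66% higher and 6.77% lower among all genes. All 7 overlapped between PF and AD, where 5.05% of all genes lay higher and 1.57% lower without overlap. The median over the 7 was 0.01. Without AD replicates 1 and 2, the 7 log2 fold changes ran from -0.16 to 0.16 in ET against AD and from -0.31 to 0.37 in PF against AD, and 0 were called in either, where 0.0127% of 15787 and 2.14% of 16179 genes were called. ET against PF and PF against AD share the PF libraries, and Calb1 was -0.27 in the first and 0.45 in the second.

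**Figure D2:**
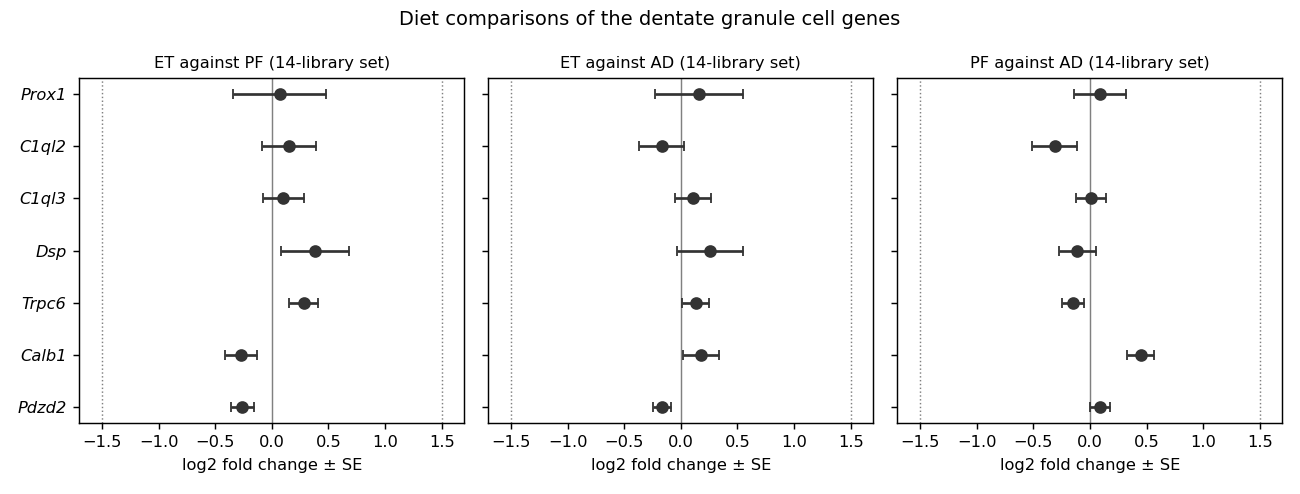
log2 fold change (horizontal axes) of the 7 detected granule cell genes in the 3 diet comparisons of the 14-library set, with bars for the SE and dotted lines at the fold limit of 1.5 in either direction. All 21 points lie within the limits, the farthest from 0 being Calb1 in PF against AD at 0.45, and the widest bars belong to Prox1 in the comparisons with ET.

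Sex, hemisphere and the interaction of sex and diet were compared in the same way. Males against females within ET and PF gave log2 fold changes of -0.08 to 0.10 over the 7 genes, and 0 were called, where 0.0311% of 16068 genes were called. Right against left hippocampus, with diet held fixed, gave -0.09 to 0.20, with 0 called among the 7 and 0% among 16439 genes. The interaction of sex and diet ran from -0.15 to 0.45 with a median of 0.41, beside a median of 0.0 over all genes. Its SEs ran from 0.22 for Pdzd2 to 0.93 for Prox1, and ET replicate 1 was 1 of its 2 ET females. At an adjusted p under 0.01, 0 of the 7 and 0% of 16484 genes passed. Of the 7 genes, 0 had an unadjusted p under 0.05 in any of these 3 comparisons, and DESeq2 called 0 in each. Among all genes, 0.878% were higher and 0.996% lower by sex at that limit, 1.06% and 0.718% by hemisphere, and 0.813% and 0.588% for the interaction.

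Other genes of the granule cell lineage were described from fixed lists. Of 11 further genes linked to mature dentate granule cells, 10 passed the filter, and 0 were called or had an adjusted p under 0.05 in any diet comparison. Their median log2 fold change was 0.03 in ET against PF, 0.00 in ET against AD and -0.03 in PF against AD. The smallest p-values among them in ET against PF belonged to Plk5 at 0.30, Fam163b at 0.16 and Stxbp6 at 0.12 on the log2 scale. In ET against AD they belonged to Npnt and Fam163b, both at -0.09, and to Dock10 at 0.15. In PF against AD they belonged to Fam163b at -0.25, Plk5 at -0.34 and Stxbp6 at -0.13. Fam163b was thus among the 3 smallest p-values each time, with a smallest adjusted p of 0.33.

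Immature granule cells were followed by Dcx, the microtubule protein of migrating new neurons, the transcription factors Neurod1 and Sox11, and Igfbpl1, Calb2 and Tubb3. All 6 passed the filter and 0 had an adjusted p under 0.05 in any diet comparison. Dcx had log2 fold changes of -0.15 in ET against PF, 0.08 in ET against AD and 0.23 in PF against AD, the last with an unadjusted p of 0.021 and an adjusted p of 0.19. Igfbpl1 stood at 0.33 and 0.48 against PF and AD with SEs of 0.26 and 0.27. Calb2, which is also on the mossy cell list below, was 0.33 in ET against AD with an SE of 0.13 (edgeR, unadjusted p = 0.026). Mossy cells, the excitatory neurons of the hilus beneath the granule cell layer, were followed by Calcrl, Nmb, Drd2 and Calb2. Of these 4, 0 had an adjusted p under 0.05, and Drd2 had the widest error, -0.35 with an SE of 0.38 in ET against PF.

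Most of the variance of each of the 7 genes lay within diets. Over the 14 libraries, the within-diet SD of Prox1 was 0.704 on the log2 scale, larger than in 99.3% of the 11262 genes with a mean of at least 100 normalized counts, whose median SD was 0.125. C1ql2 had an SD of 0.398 (higher than 96.9% of those genes), C1ql3 of 0.289 (92.1%), Calb1 of 0.248 (88.4%), Trpc6 of 0.195 (79.2%) and Pdzd2 of 0.151 (64.2%). Dsp, with a mean under 100, had an SD of 0.449. The share of variance that lay between diets was 0.771% for Prox1 and 2.39% for C1ql3, but 43.5% for Calb1 and 36.5% for Pdzd2, beside a median of 12.5% over those genes. Without ET replicate 1 the Prox1 SD was 0.407, still above 98.0% of genes, and its share between diets was 22.9%, while that of C1ql3 was 25.1% and that of Dsp moved from 6.18% to 26.2%, beside a median of 17.6% over all those genes without that library. The ratio of the highest to the lowest library for Prox1 fell from 6.21 to 2.80.

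The genes varied together across libraries. After each gene was centred on the mean of each diet on the log2 scale, the correlation with the mean of the other detected members over the 17 libraries was 0.87 for C1ql3, 0.84 for Prox1, 0.83 for C1ql2 and 0.78 for Dsp. It was 0.67 for Trpc6, 0.62 for Calb1 and 0.39 for Pdzd2. Without ET replicate 1 these values ran from 0.44 for Pdzd2 to 0.83 for Prox1. The 17 points share the library scaling and depth, so the values are descriptions. Prox1, C1ql2, C1ql3 and Dsp thus formed the tightest group, and Pdzd2, which had the least spread, followed it least.

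Over 11256 other genes, those whose centred levels were most like the mean of the 8 members were LOC103690059, named Mgam in GRCr8 by its gene ID, with a Pearson r of 0.99, and Unc5d, Tanc1, Nfib, Rfx3, Ralgps2, Stim2 and Rragd, each at 0.96, followed by Rnf182 and Sh3bp4 at 0.95. Rfx3 is itself one of the further dentate genes. Unc5d is a netrin receptor, Nfib a nuclear factor, Stim2 a calcium sensor of the endoplasmic reticulum and Tanc1 a postsynaptic scaffold protein. Without ET replicate 1 these 10 genes had r of 0.92 to 0.98, and LOC103690059 and Unc5d remained the first and second. In all, 124 genes had r above 0.9 and 51 below -0.9 with the 17 libraries, and 33 had r above 0.9 without ET replicate 1. Of the further dentate genes, Dock10 reached 0.94 and Maml2 0.91, while Npnt stood at -0.11 and Mlip at -0.66.

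The level of the granule cell genes was then set beside that of pyramidal neurons of the CA fields, since each library is a mixture of both. The pyramidal list held Wfs1, Fibcd1, Mpped1, Pou3f1, Spink8, Rgs14, Amigo2, Bok, Grik4 and Neurod6. Spink8, at 1.16 to 6.05 normalized counts, was near the floor. The log ratio, the mean log2(normalized count + 1) of the 8 granule cell genes minus that of the 10 pyramidal genes, ran from -2.03 in AD replicate 1 to -1.49 in PF animal 11f6. It averaged -1.81 ± 0.07 in ET (SD, n = 4), -1.82 ± 0.09 in PF (SD, n = 5) and -1.90 ± 0.11 in AD (SD, n = 5). Over all 17 libraries the means were -1.82, -1.76 and -1.86, with differences of -0.059 for ET minus PF, 0.036 for ET minus AD and 0.095 for PF minus AD beside pooled SDs within diets of 0.127, 0.117 and 0.152. AD replicate 1 and AD replicate 2, the libraries with mismatched sex, had the 2 lowest ratios of all, -2.03 and -2.01. Without AD replicates 1 and 2 the AD mean was -1.82 ± 0.05 (SD, n = 3) in the smaller set, equal to that of PF. In the larger set it was then -1.78 ± 0.1 (SD, n = 4), beside -1.82 in ET and -1.76 in PF. All these ratios and SDs include Tdo2, which carried no measurement. Over the 17 libraries the ratios ran from -1.87 to -1.71 in ET, -1.89 to -1.49 in PF and -2.03 to -1.65 in AD. Without Tdo2 the ranges were wider, -0.93 to -0.62, -0.91 to -0.42 and -0.97 to -0.57.

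The levels of the 2 lists varied together across libraries. ET replicate 1 had the lowest mean level of the 17 libraries for the granule cell genes, 7.21 on the log2 scale, and also for the pyramidal genes, 9.07, and its ratio was -1.85. Where it stood depended on the genes used. Without the undetected Tdo2 its ratio was -0.93, the lowest of the 5 ET libraries, whose others ran from -0.87 to -0.62. With the pan-neuronal genes Rbfox3, Snap25, Syt1, Map2 and Tubb3 in place of the pyramidal ones it was -6.09, the lowest of all 17. Tubb3 is also on the immature granule cell list. Without Prox1 it was -1.79, and with the further dentate genes in place of the members -0.95, in both cases the highest of the 5 ET libraries. AD replicate 6 was second lowest in both, at 7.41 and 9.18. Centred on diet, the granule cell and pyramidal means had a Pearson r of 0.83 and a Spearman rho of 0.75 over 17 libraries, and r was 0.59 without AD replicate 6 and ET replicate 1, the libraries farthest from the median. Within the pyramidal list the members differed. Fibcd1, Grik4 and Bok had r of 0.92, 0.89 and 0.88 with the granule cell genes, whereas Wfs1 and Pou3f1 had 0.16 each and Mpped1 -0.47.

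**Figure D3:**
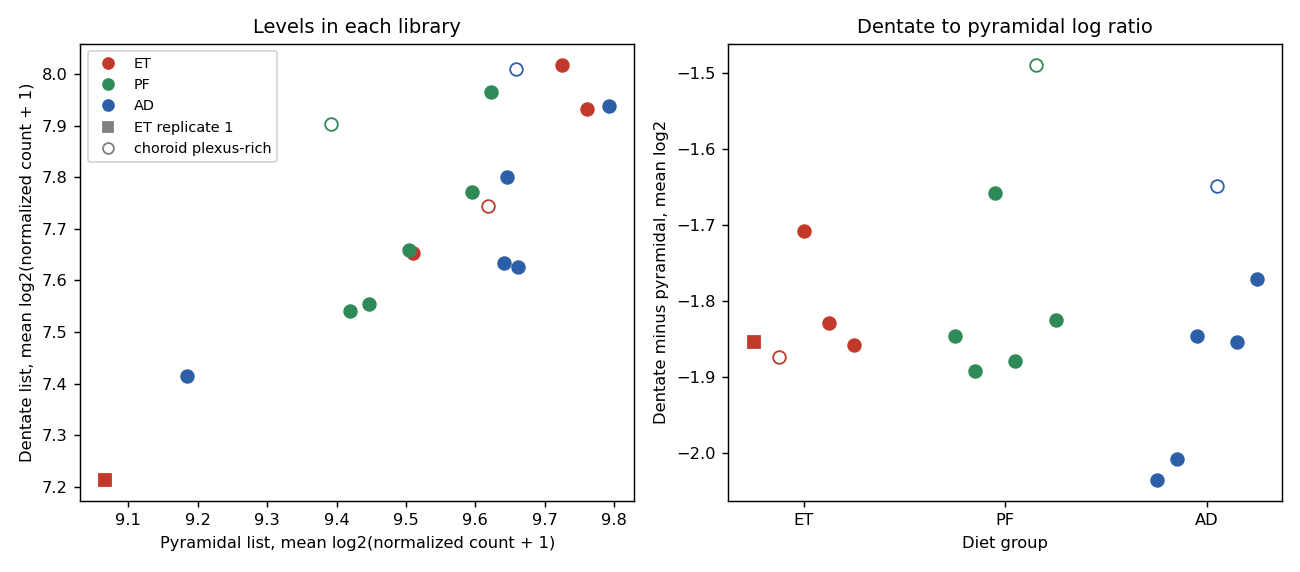
Left, mean log2(normalized count + 1) of the 8 granule cell genes (vertical axis) against that of the 10 pyramidal genes (horizontal axis), 1 point per library. Right, the difference of the 2 means by diet, with ET replicate 1 (square) lowest for both lists and at -1.85 for their difference, and PF animal 11f6 highest at -1.49.

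Markers of other cell types were set beside the granule cell genes within diets in the same way. The mean of the interneuron genes Gad1, Gad2, Sst, Pvalb and Vip had an r of -0.75 and a rho of -0.71 with the granule cell mean, and -0.81 without the 2 farthest libraries, ET replicate 3 and ET replicate 2. Pvalb, Sst and Vip stood at -0.87, -0.79 and -0.79, whereas Gad2 stood at 0.80 and Gad1 at 0.24. ET replicate 1 was the highest of the 17 libraries for the interneuron and oligodendrocyte means and the lowest for the granule cell, further dentate, immature granule cell, pyramidal and astrocyte means. The immature granule cell mean had an r of 0.76 with the granule cell mean, and 0.59 without the 2 farthest libraries, PF animal 11f6 and ET replicate 1. The 3 choroid plexus-rich libraries had the highest immature means of the 17, 8.22 to 8.29. Igfbpl1 had 108.9, 120.5 and 119.0 normalized counts in the left-out ET, PF and AD libraries against at most 50.4, 37.0 and 34.7 in the others of each diet, and Calb2 was also highest there in each diet, whereas the highest Sox11 and Neurod1 values of each diet lay in other libraries. The members of this list differed, with 0.89 for Dcx, 0.77 for Neurod1, 0.25 for Calb2 and -0.60 for Tubb3. The oligodendrocyte mean had -0.55, and -0.58 without the 2 farthest libraries, and the astrocyte mean 0.59, which fell to 0.02 without them. The choroid plexus mean had 0.18, which turned to -0.20 without its 2 farthest libraries, and the thalamus mean 0.09, and 0.08 without its 2 farthest. These too are descriptions over libraries that share scaling.

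**Figure D4:**
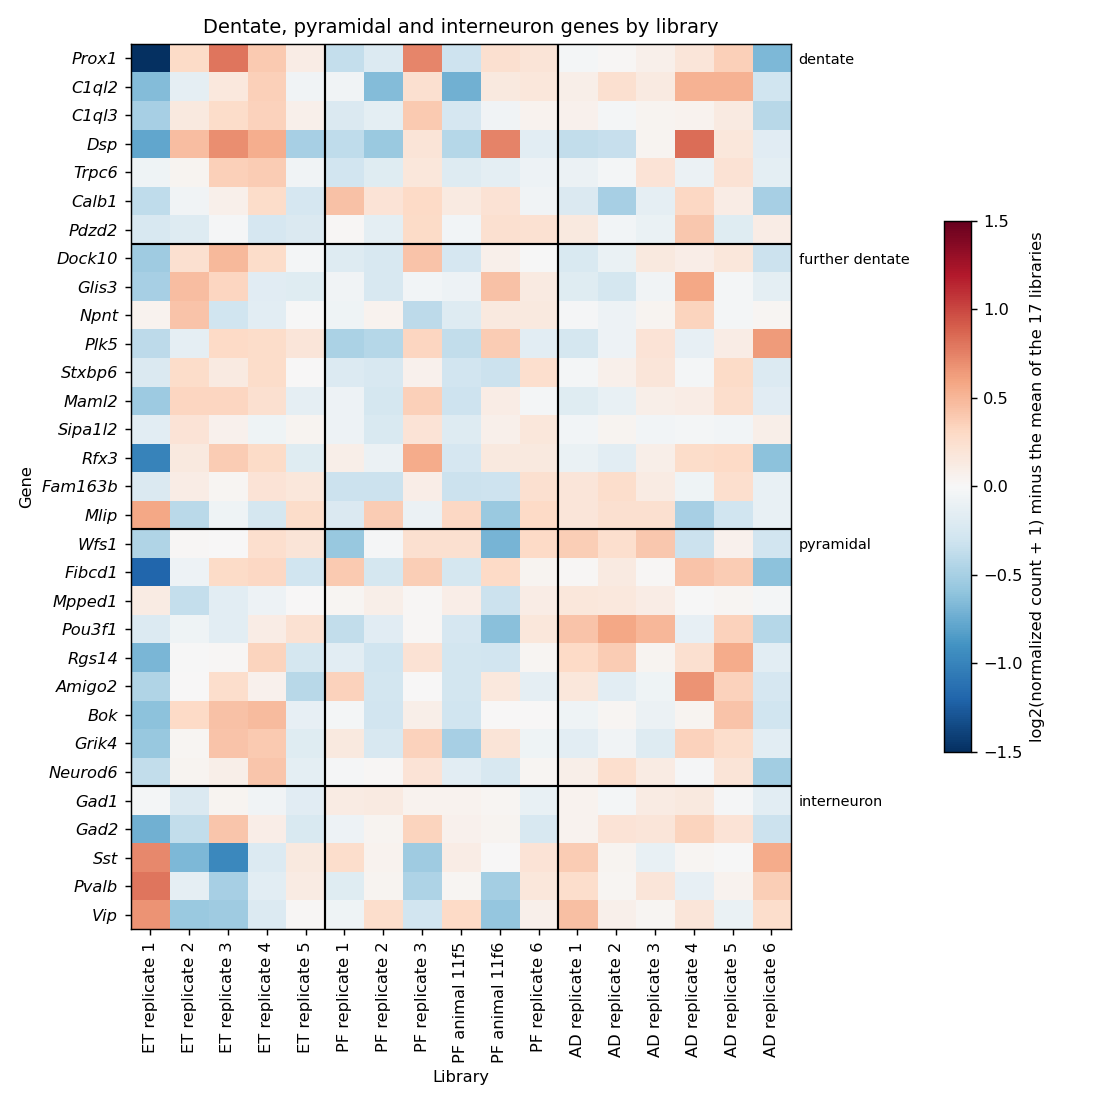
log2(normalized count + 1) of the 7 detected granule cell genes, 10 further dentate, 9 pyramidal and 5 interneuron genes (rows) in each of the 17 libraries (columns), minus the mean of the 17 libraries, with red above and blue below that mean. ET replicate 1, the first column, is blue for Prox1, Dsp, Rfx3 and Fibcd1 and, among the interneuron genes, red for Sst, Pvalb and Vip, blue for Gad2 and near the mean for Gad1.

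Markers of other tissue are given beside the granule cell values, with levels over the 14 libraries. No thalamus or choroid plexus gene passed an adjusted p of 0.05 in a diet comparison. The 5 thalamus genes Tcf7l2, Prkcd, Slc17a6, Lef1 and Rora were all above 0 in ET against PF, with a median log2 fold change of 0.51 and a smallest adjusted p of 0.095, and none was at 0. Their mean level over the 14 libraries ran from 7.91 to 8.73 in ET, from 7.35 to 7.96 in PF and from 7.94 to 8.04 in AD. The 4 oligodendrocyte genes had a median of 0.42 in ET against PF and of -0.32 in PF against AD, with Mag lower at -0.40 (adjusted p = 0.037). Their mean level ran from 13.97 to 14.38 in ET, from 13.65 to 14.08 in PF and from 13.84 to 14.28 in AD. Of the 5 choroid plexus genes, Otx2 alone was below 0 in ET against AD and PF against AD, at -1.40 and -2.03 with SEs of 1.11 each. The medians of the 5 genes were 0.18, 1.33 and 1.29 in ET against PF, ET against AD and PF against AD. Of the 5 genes, 0 had an adjusted p under 0.05. Their mean level over the 14 libraries ran from 6.13 to 8.35 in ET, from 4.68 to 8.5 in PF and from 3.07 to 7.0 in AD, and the 3 libraries left out stood at 11.14 to 11.43. The part of these tissues in the values of Calb1, Trpc6 and Pdzd2 was not tested. With the pyramidal mean as a covariate, a fit added after the data were seen, Prox1 in ET against PF was -0.13 with an SE of 0.16, a smaller error than the 0.41 without it, and Calb1 in PF against AD was 0.50 with an SE of 0.11 (adjusted p = 0.020).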

How the data were processed

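Messenger RNA of 17 hippocampi was sequenced as stranded, paired-end libraries. The authors aligned reads to mRatBN7.2 with Bowtie2 2.4.2 and counted exon fragments with featureCounts 2.0.1 at a mapping quality of at least 10, and a read could count for more than 1 feature. The release of the annotation and the strand setting are not given in the sources used here. The values the authors deposited are estimated counts, fragments per gene averaged over 3 technical replicates, of which 53.3% were whole within 1e-06, zeros included (30.7% of values above 0). They were rounded before testing.

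The members and lists were chosen with earlier results of these data known. All 8 members are named in the text, but not in each comparison, where some fold changes are given only as a range or median. For each diet comparison, the 3 further dentate genes with the smallest p are named. The 10 genes most like the members by Pearson r are named as well. Genes were filtered with filterByExpr, scaled by TMM and tested in R 4.3.3 by edgeR 4.0.16 (quasi-likelihood), with Benjamini-Hochberg adjustment over all genes tested. A gene was called at an adjusted p below 0.01 if its log2 fold change also exceeded 1.5 in size (adjusted p alone for the interaction). The SE is the absolute log2 fold change over the square root of F. In simulated counts for ET against PF (16068 genes), edgeR recovered 87 of 89 genes changed by 2 on the log2 scale and 111 of 111 changed by 3. It made 1 false call. Both changes exceed the fold limit of 1.5, so recovery of smaller differences, such as those of the granule cell genes, was not tested.

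Groups and replicate numbers came from the labels; PF animals 11f5 and 11f6 carry animal names because the labels do not tell their numbers. The smallest mean chi-square per gene between libraries of 1 diet was 8.64 over 40 pairs, so none was a duplicate. Alternatives were DESeq2 1.42.0, other scaling, no filter, all 17 libraries, summed technical replicates, a threshold of 0.05, covariates, 1 joint fit, a replicate block, and leaving out overlapping genes or each library. Overlaps were taken from RefSeq GRCr8, to which 89.7% of the 34322 symbols matched. Totals were 10853947 to 17498392 fragments; floors cover counting error only. Python 3.11.15, numpy 2.4.6, pandas 2.3.3 and matplotlib 3.10.9 were used. A result on a marker gene of another cell type is not reported here.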

Additional observations from a re-analysis of the deposited data

Results flagged for a closer look

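Within each diet, 24 groups of values (7 detected genes and the log ratio in 3 diets) were examined for a library far from the others, and 4 stood out, where chance gives about 1 in 20 groups. C1ql3 was lowest in AD replicate 6, at 475 normalized counts. Dsp was highest among the AD libraries in AD replicate 4, at 146 normalized counts, a library rich in choroid plexus RNA. Pdzd2 was highest among the ET libraries in ET replicate 3, at 909 normalized counts. The log ratio of granule cell to pyramidal genes was highest among the ET libraries in ET replicate 3, at -1.71. This rested on Tdo2, which was not detected. Without it ET replicate 3 stood at -0.62 and its gap to the next library was 0.255 of the ET range, under the limit of 0.71 for 5 libraries. Prox1 in ET replicate 1, at 110.0 normalized counts, did not pass the same limit, its gap being 0.541 of the ET range. Genes entered this check as normalized counts and the ratio on the log2 scale. Prox1 was not examined on the log2 scale.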

How the results depend on the processing

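No granule cell gene was called at an adjusted p under 0.01 with a log2 fold change above 1.5 in any of the 6 comparisons (adjusted p alone for the interaction), under any setting run. The log ratio differences between diets moved by less than the SD within diets under each setting tried. ET minus PF turned from -0.059 to 0.017 with the further dentate genes and to 0.044 with the pan-neuronal genes. The lowest ratio was then that of AD replicate 5 (-1.33, with AD replicate 6 the highest at -0.92) and ET replicate 1 (-6.09), and the second lowest was ET replicate 2 (-2.27) at a pseudocount of 0.1 and PF replicate 2 (-2.31) without Calb1. Signs of log2 fold changes turned in 21 of the 453 values from alternatives, all with an adjusted p of at least 0.592. For Prox1 in ET against PF they were -0.015 with hemisphere as a covariate, -0.132 with the pyramidal mean as a covariate and -0.598 with the replicate block, and leaving out single libraries gave -0.242 to 0.390. Leaving out single libraries gave -0.152 to 0.475 for Prox1 in ET against AD, -0.142 to 0.194 for Prox1 in PF against AD and -0.116 to 0.066 for C1ql3 in PF against AD, where all 17 libraries gave -0.012. In ET against PF it gave 0.010 to 0.309 for C1ql2, 0.007 to 0.252 for C1ql3 and 0.117 to 0.583 for Dsp. The cause of these turns was not tested.

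The deviations of same-numbered samples of different diets had r of -0.25 to 0.60 and did not all exceed 0.1, and the numbers mark different animals, so they were not taken as pairs. With the replicate block, in which PF animals 11f5 and 11f6 had no number and were left out, 3 genes were called higher and 194 lower in ET against PF, beside 6 and 343 without it, and the log2 fold changes in ET against PF were -0.333 for C1ql2 and -0.198 for C1ql3. In ET against AD the block gave -0.345 for Prox1, -0.122 for C1ql3, -0.091 for Dsp, -0.027 for Trpc6 and -0.106 for Calb1, and in PF against AD it gave 0.565 for Calb1 (adjusted p = 0.0026). Over its alternatives the adjusted p of Calb1 in PF against AD ran from 0.0026 to 0.30. Summing the technical replicates left the error of Dsp in ET against PF at 0.302, and Tdo2 was not detectable at this depth.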
